A study of Mus musculus with 32 samples.

Results

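Collagen genes were followed through extraocular muscle, limb muscle and the oculomotor and abducens regions of the brainstem in pigmented and albino mice. The members are all 44 gene symbols made of "Col", a number, the letter "a" and a number, out of 24421 symbols counted. They were sorted by the kind of assembly their protein forms. There were 11 fibrillar collagens, 6 of the basement membrane network, 6 of beaded filaments, 9 fibril-associated collagens, 3 of short-chain networks, 2 multiplexins, 4 transmembrane collagens and 3 others that include the anchoring fibril collagen Col7a1.

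Collagens are the main structural proteins of the extracellular matrix. Each molecule is a triple helix of alpha chains, every chain has its own gene, and the chains that combine decide whether the molecule joins a fibril, a basement membrane sheet, a microfilament or the cell surface. In skeletal muscle, fibroblasts lay down fibrillar collagen between fibres and around fascicles, and each fibre is wrapped in a basement membrane built on type IV collagen. In brain, type IV collagen surrounds the blood vessels, fibrillar collagen is mostly found in the meninges, and some transmembrane collagens are made by neurons.

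The study sequenced RNA from 32 libraries, 4 for each of 8 groups: extraocular muscles (EOM, the muscles that turn the eye), tibialis anterior (TA, a muscle of the shin), and tissue labelled CN3 (oculomotor) and CN6 (abducens). The pigmented mice were C57BL/6, and the albino mice were B6(CG)Tyr(c-2J)/J, which carry a mutated tyrosinase gene. No treatment is named, and age, sex and whether the 4 libraries of a group came from separate animals are not given in the sources used here, so p-values measure only the spread between these libraries. Library totals lay between 18544334 and 44254021 counts.

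In 8 albino libraries the muscle and brain genes went against the label. The summed level of 15 fast-fibre genes was 113 and 124 CPM (counts per 1000000 counted) for the pair labelled albino EOM 1 and 2, and 227 and 231 CPM in those labelled albino TA 1 and 2. It was 94500 and 96200 CPM in the libraries labelled albino CN3 3 and 4, and 194000 and 186000 CPM in those labelled albino CN6 3 and 4. The other 24 libraries matched the kind of tissue on their label: 4 C57BL/6 libraries for each tissue, albino EOM 3 and 4, albino TA 3 and 4, albino CN3 1 and 2, and albino CN6 1 and 2. Comparisons between genotypes used those 24 libraries, and the 8 others are described one by one. Calls with all libraries as labelled are given beside each comparison of genotypes. As labelled, each albino group mixes muscle and brain libraries, so those calls say nothing about the genotype difference within a tissue. Shares over all genes are not given for those fits.

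**Figure D1:**
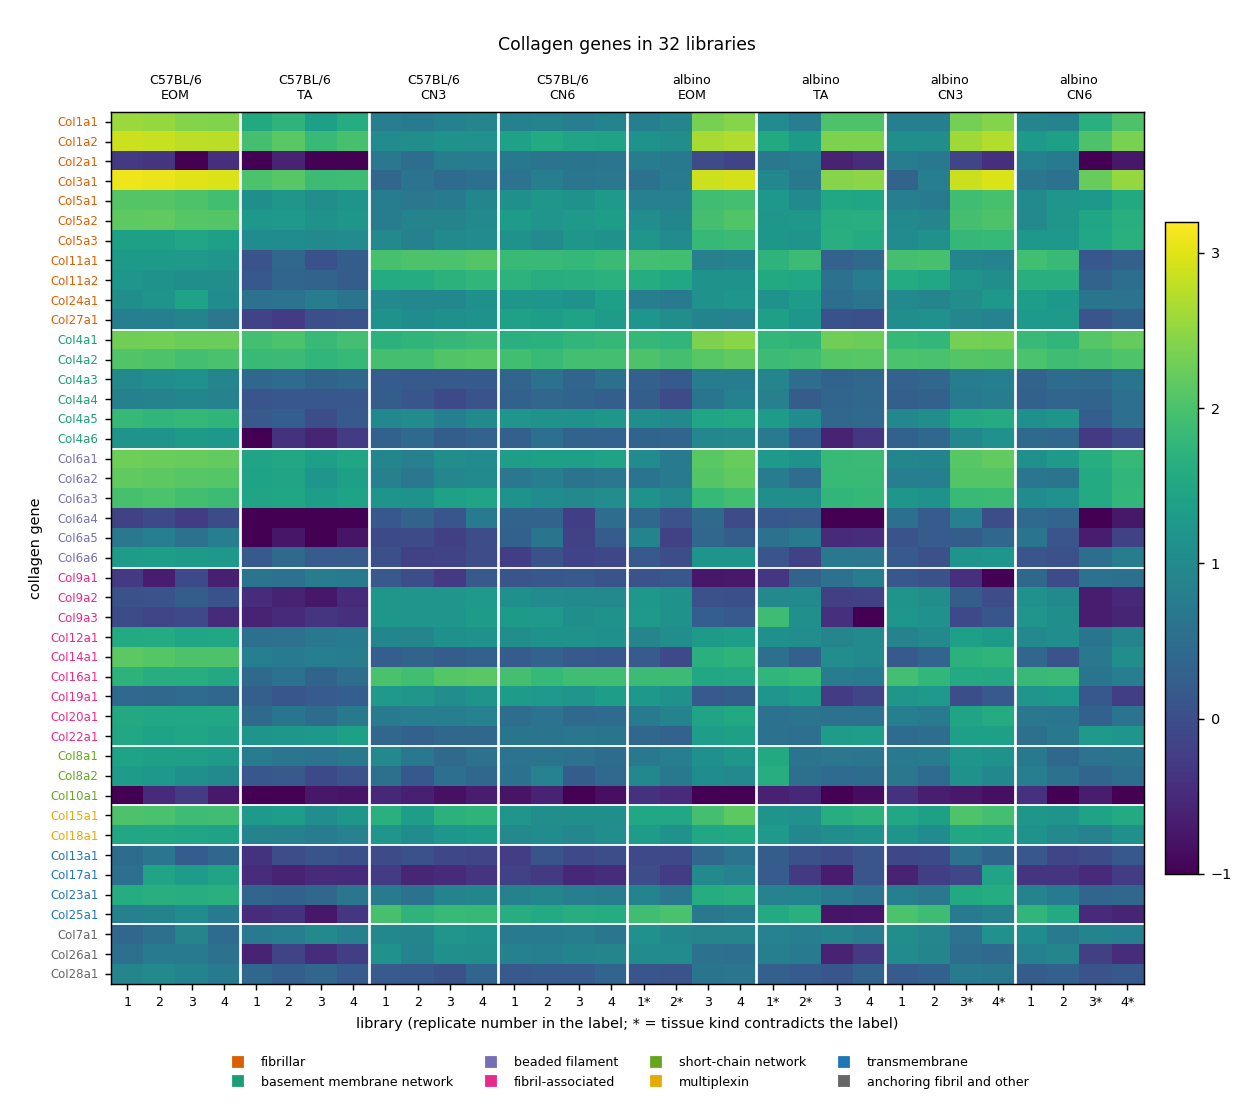
Heat map of the 44 collagens (rows, by class) in the 32 libraries (columns, by labelled group), coloured by CPM on a log10 scale. Columns with an asterisk are the 8 libraries in which muscle and brain genes did not match the tissue named, and their collagen columns look unlike those of their own group.

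In C57BL/6 mice, collagens took the largest share of all counts in EOM. The 4 EOM libraries gave between 0.322% and 0.416% of their counts to collagens, with a mean of 0.371% ± 0.0434 (SD, n = 4). The 4 TA libraries lay between 0.0487% and 0.0736%, with a mean of 0.0607% ± 0.0102 (SD, n = 4), so the ranges did not overlap and the ratio of the means was 6.12. CN3 held 0.0794% ± 0.0111 (SD, n = 4) and CN6 0.0693% ± 0.00273 (SD, n = 4), with means above that of TA. Their ranges, 0.0665% to 0.0927% in CN3 and 0.0661% to 0.0722% in CN6, overlapped each other and that of TA. The share in either brainstem tissue was not tested against TA. The EOM and TA shares differed at p = 0.0286 in a two-sided exact permutation test, the smallest p that 4 against 4 allows, and the p adjusted over the 8 comparisons of the share was 0.202. In bulk tissue, fewer cells of a type and less RNA per cell cannot be told apart. The fibroblast marker list, 15 genes with no collagen among them, summed to between 7760 and 8650 CPM in EOM and between 901 and 1160 CPM in TA, and its part in the difference was not tested.

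**Figure D2:**
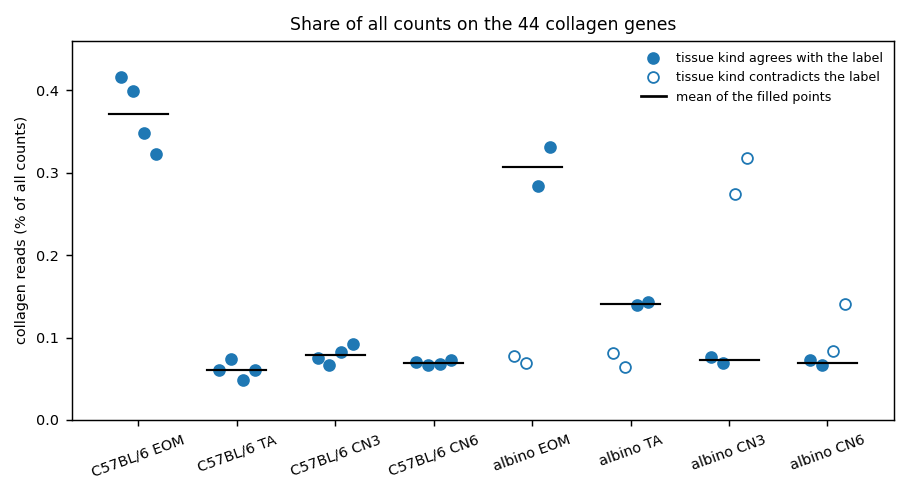
Share of all counts that fell on the 44 collagens, in percent, for each library by labelled group; filled points are the 24 libraries used in the genotype comparisons open points the 8 whose tissue kind went against the label, and black lines the means of filled points. The C57BL/6 EOM libraries sit between 0.322% and 0.416%, above all C57BL/6 libraries of the other tissues, and the albino TA libraries 3 and 4 sit at 0.140% and 0.143%, above the 4 C57BL/6 TA libraries.

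The make-up of that share differed between tissues. Fibrillar chains supplied 64.4% of collagen counts in C57BL/6 EOM (62.6% to 66%), 46.1% in TA (43.9% to 50.5%), 36.1% in CN6 (35.3% to 37.0%) and 28.5% in CN3 (26.6% to 31.4%). The basement membrane network supplied 10.4% in EOM and 26.2% in TA, against 22.6% in CN3 and 22.7% in CN6. Fibril-associated collagens made up 22.7% in CN3 and 21.4% in CN6 but 7.07% in EOM and 7.03% in TA. Transmembrane collagens reached 9.92% in CN3 and 6.88% in CN6, against 2.02% in EOM and 0.671% in TA.

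**Figure D3:**
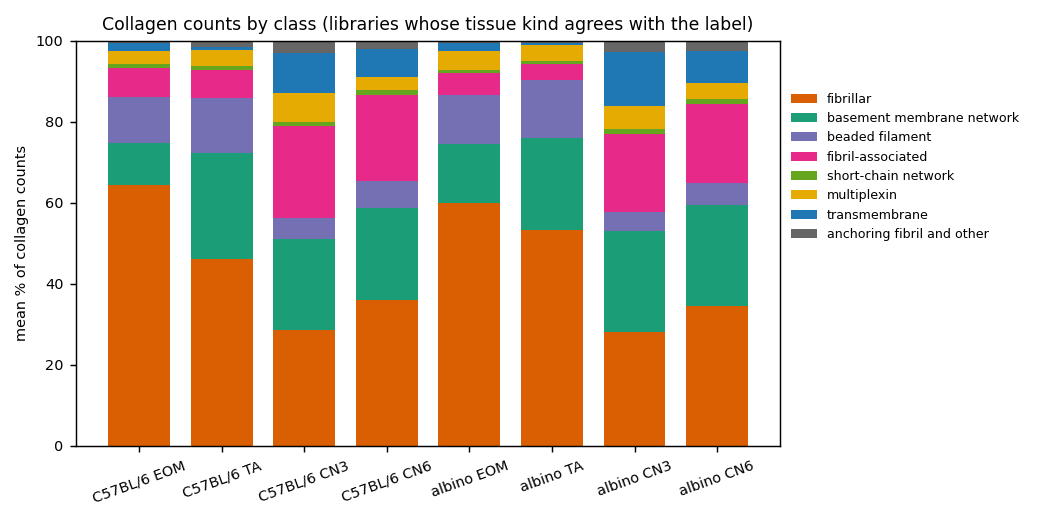
Mean percent of collagen counts in each class (stacked bars from 0 to 100%), by group, over the 24 libraries whose tissue kind matched the label (n = 4 C57BL/6 and n = 2 albino per tissue). The fibrillar part is widest in C57BL/6 EOM at 64.4% and narrowest in the CN3 groups, and it is 53.2% in albino TA against 46.1% in C57BL/6 TA.

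Levels per kilobase of exon allow a rough ranking of genes within a tissue. The length is that of the exons of all annotated transcripts merged, so the ranking depends on the annotation. It was 12426 bases for Col1a2 and 6563 bases for Col1a1. In C57BL/6 EOM, the type III fibril chain Col3a1 led with a level of 112 CPM per kb, followed by the type I chains Col1a2 at 53.4 and Col1a1 at 47.4 CPM per kb. The library ranges of Col1a2 (46.8 to 61.8) and Col1a1 (39.3 to 57.3) overlapped, so their order per kb is not settled by these data. Without division by length, Col1a2 was higher, at 768, 708, 595 and 582 CPM against 376, 347, 265 and 258 CPM for Col1a1. In TA the type IV chains Col4a1 and Col4a2 were highest, at 11.5 and 10.2 CPM per kb, with Col3a1 next at 9.76, and these 3 ranges overlapped. In CN3 the fibril-associated Col16a1 and Col4a2 stood at 16.2 and 15.8 CPM per kb, and in CN6 Col4a2 and Col16a1 at 12.3 and 11.8, again with overlapping ranges. The fibrillar chain Col11a1 came next in CN3 at 8.31 CPM per kb and was at 5.33 in CN6.

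The type IV chains Col4a1 and Col4a2 are partners in 1 basement membrane molecule, and their genes lie head to head. Their level ratio per kb changed with the tissue: Col4a1 over Col4a2 was 1.63 in C57BL/6 EOM (1.54 to 1.73), 1.13 in TA (1.01 to 1.24), 0.583 in CN6 (0.501 to 0.624) and 0.512 in CN3 (0.481 to 0.572). Neither the EOM and TA ranges nor those of either muscle and either brainstem tissue overlapped, while the CN3 and CN6 ranges did. Both promoter windows are shown because they hold the shared start region of this pair; the windows run from 250 bases before to 50 bases after the start of each gene in RefSeq (build GRCm38.p6), at chr8:11312777-11313076 on the minus strand for Col4a1 and chr8:11312555-11312854 on the plus strand for Col4a2. Capitals mark the 78 bases common to both windows, chr8:11312777-11312854, read on opposite strands.
Col4a1: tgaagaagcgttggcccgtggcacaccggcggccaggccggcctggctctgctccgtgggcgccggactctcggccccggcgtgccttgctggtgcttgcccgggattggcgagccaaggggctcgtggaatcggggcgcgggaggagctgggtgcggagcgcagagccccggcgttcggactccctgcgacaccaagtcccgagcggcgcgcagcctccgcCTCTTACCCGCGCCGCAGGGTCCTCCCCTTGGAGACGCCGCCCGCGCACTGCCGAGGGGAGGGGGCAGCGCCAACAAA
Col4a2: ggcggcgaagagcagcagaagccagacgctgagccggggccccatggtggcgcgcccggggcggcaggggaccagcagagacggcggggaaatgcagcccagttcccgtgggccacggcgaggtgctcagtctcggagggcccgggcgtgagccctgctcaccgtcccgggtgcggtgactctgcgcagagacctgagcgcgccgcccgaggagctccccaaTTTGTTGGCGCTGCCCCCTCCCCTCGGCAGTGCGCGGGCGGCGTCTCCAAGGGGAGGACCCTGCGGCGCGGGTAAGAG
Exons of this pair overlap by 22 bases on opposite strands in GENCODE M21, and whether the deposited counts were made by strand is not given in the sources used here, so reads in those bases cannot be told apart.

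In C57BL/6 mice, most collagens were higher in EOM than in TA relative to the median gene. Of 41 collagens tested, 36 were higher and 2 lower, where 77.1% of all 14408 genes tested were called (42.1% higher and 35.0% lower). The median log2 difference was 2.22 over the collagens and 0.10 over all genes tested. Calls rest on edgeR's quasi-likelihood F test, with a Benjamini-Hochberg adjusted p over all genes tested of less than 0.05, and log2 differences are on the TMM scale, in which most genes are taken as unchanged. Dividing by library totals alone moved the median difference between EOM and TA up by 0.67, and under that scaling Col4a2 and Col22a1, which were not called, changed sign.

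All 10 fibrillar collagens tested were higher in EOM. Col3a1 stood at 1260, 1200, 1030 and 906 CPM in the 4 EOM libraries and at 102, 129, 74.3 and 78.3 CPM in the 4 TA libraries, a log2 difference of 2.85 ± 0.21 (SE, adjusted p = 1.10e-05). Col1a1 had 376, 347, 265 and 258 CPM in EOM and 35.1, 54.2, 23.6 and 40.3 CPM in TA, a log2 difference of 2.35 ± 0.28 (adjusted p = 0.000205). The ranges of both genes were far apart between the muscles. Col5a3, a type V chain that can join fibrils in place of other type V chains, differed least of the class, with 24.3, 24.2, 30.7 and 23.7 CPM in EOM and 11.1, 11.0, 10.1 and 10.4 CPM in TA (log2 difference 0.60 ± 0.10, adjusted p = 4.88e-05).

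In the basement membrane network, 5 of 6 chains were higher in EOM, and the chains split. Col4a5, mutated in Alport syndrome, stood at 64.8, 58.5, 63.0 and 55.2 CPM in EOM and at 1.40, 1.73, 0.909 and 1.47 CPM in TA, a log2 difference of 4.77 ± 0.13 (adjusted p = 2.55e-13). Its head-to-head partner Col4a6 had 14.9, 14.6, 19.7 and 17.1 CPM in EOM against 0, 0.307, 0.173 and 0.429 CPM in TA (log2 difference 5.45 ± 0.37, adjusted p = 8.08e-08). The widespread chain Col4a1 differed by 0.44 ± 0.12 (adjusted p = 0.00552), and Col4a2 by -0.08 ± 0.09 (adjusted p = 0.439).

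Among the other classes, all 6 beaded filament chains were higher in EOM, including the ubiquitous Col6a1 (log2 difference 1.89 ± 0.09) and Col6a5, which had 4.70, 6.47, 3.61 and 6.06 CPM in EOM and at most 0.0767 CPM in TA. Col6a4 stood between 0.435 and 0.826 CPM in EOM and was at 0 in all 4 TA libraries. Of 8 fibril-associated collagens, 5 were higher in EOM and 1 lower. Col14a1, which coats fibrils, was at 139, 123, 106 and 107 CPM in EOM and at 6.48, 5.25, 6.15 and 5.61 CPM in TA (log2 difference 3.67 ± 0.11, adjusted p = 1.20e-12). The lower member was Col9a1, with 0.409, 0.108, 0.783 and 0.138 CPM in EOM and 4.04, 3.8, 5.93 and 5.08 CPM in TA (log2 difference -4.32 ± 0.41, adjusted p = 3.43e-07). Col7a1 was the other lower collagen, at -1.37 ± 0.39 (adjusted p = 0.00995). Col22a1, known from the muscle-tendon junction, did not pass the test (-0.002 ± 0.14, adjusted p = 0.990).

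All 4 transmembrane collagens were higher in EOM. Col25a1, which motor axons need to enter muscle during development, had 6.71, 7.87, 11.0 and 5.32 CPM in EOM and between 0.0866 and 0.358 CPM in TA (log2 difference 4.23 ± 0.34, adjusted p = 2.40e-08). Col17a1, a hemidesmosome collagen of surface epithelia, varied most within EOM, at 3.27, 27.8, 20 and 28.4 CPM, while TA lay between 0.153 and 0.240 CPM. The surface epithelium list summed to 159, 902, 495 and 1140 CPM in the same 4 EOM libraries and to between 6.60 and 8.05 CPM in TA, and its part in the Col17a1 difference was not tested.

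Between C57BL/6 muscle (mean of EOM and TA) and brainstem (mean of CN3 and CN6), 28 of 43 collagens tested were higher in muscle and 11 lower. Of all 16670 genes tested, 88.7% were called (41.4% higher and 47.4% lower). A collagen called higher on that mean need not be higher in both muscles. Col20a1, called higher, had 31.2 to 33.6 CPM in EOM but 2.72 to 4.97 CPM in TA. Its level was 5.51 to 7.29 CPM in CN3 and 2.66 to 3.87 CPM in CN6. The highest muscle-to-brain differences were in fibril chains and their partners: Col3a1 at a log2 difference of 7.07 ± 0.16, Col1a1 at 4.69 ± 0.16 and Col14a1 at 4.66 ± 0.10, each with an adjusted p of 6.24e-14 or less. Col3a1 was between 2.35 and 6.17 CPM in the 8 brainstem libraries. Scaling by library totals moved the median by -0.69, and the directions of Col4a2 and Col4a5, called higher in muscle, and of Col4a6, Col7a1 and Col24a1, which were not called, changed with it. The Col4a5 difference of 0.34 ± 0.11 joined unlike muscles, since TA levels lay under those of every CN3 and CN6 library (6.49 to 16.4 CPM) and EOM levels above them.

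Collagens higher in brainstem came from 5 classes. Among the fibrillar chains best known from cartilage, Col11a1 was at 93.3, 106, 103 and 121 CPM in CN3 and 68.0, 67.2, 63.2 and 73.3 CPM in CN6, against at most 19.6 CPM in any C57BL/6 muscle library (log2 difference -3.28 ± 0.11, adjusted p = 2.17e-15). Its partner chain Col11a2 differed by -2.54 ± 0.11 (adjusted p = 9.67e-14) and Col2a1 by -4.80 ± 0.41 (adjusted p = 2.50e-09). Type IX chains Col9a2 and Col9a3 were lower in muscle by -4.15 ± 0.14 and -4.67 ± 0.18, whereas the third chain Col9a1 was higher in muscle at 0.92 ± 0.30 (adjusted p = 0.00783), with 3.8 to 5.93 CPM in TA, 0.108 to 0.783 CPM in EOM and 0.424 to 1.38 CPM in brainstem. Col9a3 shares 234 bases of exon with Tcfl5 on the other strand. Col25a1 had between 36.8 and 93.6 CPM in the brainstem libraries and at most 11.0 CPM in muscle, a log2 difference of -4.54 ± 0.17 (adjusted p = 3.23e-14).

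Within the C57BL/6 brainstem, 9 collagens were higher in CN3 and 12 higher in CN6, of 43 tested, where 26.4% of 16004 genes were called (13% higher and 13.4% lower in CN3). Fibrillar chains leaned to CN6, with 7 lower and 1 higher in CN3 of 11 tested. Col1a2 stood at 10.5, 12, 14 and 13 CPM in CN3 and at 25.5, 37.1, 28.5 and 26.0 CPM in CN6 (log2 difference -1.28 ± 0.12, adjusted p = 4.53e-05), and its type I partner Col1a1 did not pass the test (-0.14 ± 0.13, adjusted p = 0.479). The per-kb ratio of Col1a1 to Col1a2 was 1.02 in CN3 (0.870 to 1.17) and 0.468 in CN6 (0.379 to 0.569), with no overlap. In type VI, Col6a1 was lower in CN3 (-1.41 ± 0.15, adjusted p = 9.60e-05) and Col6a2 was not called (0.60 ± 0.22, adjusted p = 0.0674). Col6a3 was higher (0.81 ± 0.23, adjusted p = 0.0270), but its call was lost in 5 of the 8 fits with 1 library left out. The largest adjusted p was 0.0791, without C57BL/6 CN3 replicate 3, where the difference was 0.71. The Col6a3 call was also lost with the replicate block. Higher in CN3 were also the multiplexins Col15a1 (45.4, 22.2, 49.5 and 53.1 CPM against 15.5, 12, 12.2 and 12.2 CPM, log2 difference 1.67 ± 0.25) and Col18a1 (0.54 ± 0.14), Col11a1 (0.60 ± 0.08) and Col25a1 (0.79 ± 0.14), all with an adjusted p of 0.0143 or less. Of the marker lists, fibroblast genes had 2 higher and 5 lower in CN3 of 14 tested, tenocyte genes 1 and 4 of 8, endothelial genes 0 and 3 of 12 and choroid plexus genes 1 and 4 of 10. The fibroblast sums overlapped (201 to 280 CPM in CN3, 220 to 273 CPM in CN6), as did choroid plexus sums (41.8 to 50.6 CPM and 42.5 to 216 CPM). Anterior pituitary sums (8.44 to 481 CPM and 10.5 to 363 CPM) overlapped too. Endothelial sums, 269 to 350 CPM in CN3 and 344 to 396 CPM in CN6, overlapped only at their edges. Their part in the collagen differences was not tested.

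In EOM, albino against C57BL/6, the collagen genes moved in both directions. Of 42 tested, 3 were higher and 13 lower in the albino libraries, where 32.8% of all 15397 genes tested were called (15.0% higher and 17.9% lower). The median log2 difference was -0.31 over the collagens and 0.01 over all genes. The 3 higher members were the fibrillar chain Col5a3 and the basement membrane chains Col4a1 and Col4a2. The lower members were 4 fibrillar chains, 3 other type IV chains, 2 beaded filament chains, 2 fibril-associated collagens, Col8a1 and Col28a1.

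Col5a3 stood at 24.3, 24.2, 30.7 and 23.7 CPM in C57BL/6 EOM and at 66 and 73.3 CPM in albino EOM. Both albino libraries were above every C57BL/6 library, a 2.74-fold difference (log2 1.46 ± 0.11, adjusted p = 4.81e-05). The other type V chains did not share that direction: Col5a2 was lower (-0.37 ± 0.13, adjusted p = 0.0482) and Col5a1 was not called (-0.31 ± 0.13, adjusted p = 0.0970). The per-kb ratio of Col5a3 to Col5a1 was thus 0.303 in C57BL/6 and 1.01 in albino EOM.

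The promoter windows of Col5a3 and Col5a1 are shown because these chains of 1 collagen type had unlike albino differences in EOM, where Col5a3 was called higher and Col5a1 was not called. They come from RefSeq (build GRCm38.p6), chr9:20815018-20815317 on the minus strand for Col5a3 and chr2:27886175-27886474 on the plus strand for Col5a1. Capitals mark the motifs CCAAT and GGGCGG (the GC box) on either strand, which do not overlap here.
Col5a3: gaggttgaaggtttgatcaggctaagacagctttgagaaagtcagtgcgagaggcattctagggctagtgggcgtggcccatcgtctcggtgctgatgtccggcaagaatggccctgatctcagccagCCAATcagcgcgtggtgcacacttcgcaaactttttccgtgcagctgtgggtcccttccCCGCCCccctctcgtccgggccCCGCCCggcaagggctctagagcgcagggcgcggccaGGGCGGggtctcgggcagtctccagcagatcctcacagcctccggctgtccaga
Col5a1: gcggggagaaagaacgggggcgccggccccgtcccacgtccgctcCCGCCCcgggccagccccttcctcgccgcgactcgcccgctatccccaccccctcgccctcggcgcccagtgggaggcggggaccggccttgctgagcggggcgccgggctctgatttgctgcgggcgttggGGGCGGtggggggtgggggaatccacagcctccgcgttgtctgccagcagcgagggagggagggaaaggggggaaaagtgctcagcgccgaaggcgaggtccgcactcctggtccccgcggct
Col5a3 holds 1 CCAAT and 3 GC boxes, and Col5a1 holds 2 GC boxes and no CCAAT. Over the 32851 promoter windows of the table, 37.4% hold CCAAT, 35.7% hold GGGCGG and 13.6% hold TATAAA on either strand. Windows were found for 35 of the 44 collagens, 38 windows in all, of which 13 hold CCAAT, 23 hold GGGCGG and 5 hold TATAAA.

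Col4a1 had 197, 204, 171 and 174 CPM in C57BL/6 EOM and 234 and 280 CPM in albino EOM, with no overlap (log2 difference 0.48 ± 0.11, adjusted p = 0.00885). Col4a2 had 114, 106, 87.8 and 100 CPM against 127 and 147 CPM, also with no overlap (0.45 ± 0.12, adjusted p = 0.0179). Both calls were lost without albino EOM replicate 4, where Col4a1 was at 0.28 (adjusted p = 0.112) and Col4a2 at 0.27 (adjusted p = 0.180), and with offsets for GC content and length, where Col4a1 was at 0.36 (adjusted p = 0.0687) and Col4a2 at 0.26 (adjusted p = 0.225). The other type IV chains were lower or not called. Col4a5 fell from 64.8, 58.5, 63.0 and 55.2 CPM to 29.6 and 34.1 CPM (-0.91 ± 0.11, adjusted p = 0.000287), Col4a6 by 0.81 (SE 0.15, adjusted p = 0.00245) and Col4a3 by 0.84 (SE 0.20, adjusted p = 0.00990) on the log2 scale, while Col4a4 was at -0.39 ± 0.24 (adjusted p = 0.238). Col4a1 and Col4a2, the chains of nearly all basement membranes, and Col4a3, Col4a5 and Col4a6, which are found in a restricted set of them, were thus called in opposite directions.

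Lower fibrillar and fibril-associated chains showed no overlap between genotypes for the largest differences. Col11a1 had 19.6, 19.4, 18.7 and 15.9 CPM in C57BL/6 EOM and 6.70 and 7.32 CPM in albino EOM (log2 difference -1.38 ± 0.14, adjusted p = 0.000160). Col14a1 had 139, 123, 106 and 107 CPM against 45.9 and 52.8 CPM (-1.25 ± 0.14, adjusted p = 0.000310), and Col12a1, also a fibril-associated chain, had 36.5, 37.9, 30.6 and 32.4 CPM against 19.0 and 21.8 CPM (-0.74 ± 0.13, adjusted p = 0.00185). The main fibril chains differed less: Col3a1 by -0.41 ± 0.14 (adjusted p = 0.0440) and Col1a2 by -0.45 ± 0.13 (adjusted p = 0.0276), while Col1a1 was not called (-0.33 ± 0.20, adjusted p = 0.267). Also lower were Col8a1 (-0.70 ± 0.15), Col28a1 (-0.86 ± 0.24), Col6a5 (-1.36 ± 0.32) and Col6a6 (-0.39 ± 0.13), each with an adjusted p of 0.0374 or less. Without albino EOM replicate 3, 6 of the lower calls were lost, with values of -0.33 for Col3a1 (adjusted p = 0.227), -0.36 for Col1a2 (adjusted p = 0.160), -0.23 for Col5a2 (adjusted p = 0.252), -0.41 for Col6a6 (adjusted p = 0.121), -0.81 for Col28a1 (adjusted p = 0.105) and -0.80 for Col4a3 (adjusted p = 0.0693). The call of Col6a5 was lost without albino EOM replicate 4 (-1.18, adjusted p = 0.0572). Calls near the threshold also rested on C57BL/6 libraries: over the 6 libraries left out in turn, Col3a1 lost its call 5 times and Col5a2 and Col6a6 4 times each. The per-kb ratio of Col11a1 to Col11a2 went from 0.738 in C57BL/6 to 0.280 in albino EOM, and Col11a2 was not called at 0.01 ± 0.15 (its sign changes with library-total scaling).

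The collagen share of all counts was 0.307% ± 0.0335 (SD, n = 2) in albino EOM and 0.371% ± 0.0434 (SD, n = 4) in C57BL/6 EOM (p = 0.200, two-sided exact permutation test; adjusted over 8 comparisons 0.320). The fibroblast list summed to 6430 and 7640 CPM in albino EOM against 7760 to 8650 CPM, with 1 of its 15 tested genes higher and 3 lower, and the chondrocyte list to 81.6 and 92.2 CPM against 114 to 134 CPM. The endothelial list summed to 912 and 935 CPM against 760 to 896 CPM (5 of 12 genes higher, 1 lower), the macrophage list to 722 and 849 CPM against 586 to 719 CPM (5 of 12 higher) and the mural list to 1140 and 1150 CPM against 1340 to 1630 CPM (3 of 10 higher, 3 lower), each with no overlap. Uty, a Y-linked gene, was at 16.4 and 19.1 CPM in albino EOM and between 27.8 and 43.1 CPM in C57BL/6 EOM. That level and the genotype thus cannot be told apart here. Ddx3y, also Y-linked, was likewise lower in albino EOM, at 57.2 and 70.1 CPM against at least 94.3 CPM. In CN3 and CN6 Ddx3y went the other way. There the albino libraries used were above every C57BL/6 library, which reached at most 66.5 CPM in CN3 and 63.7 CPM in CN6. The X-linked gene Xist was at most 0.258 CPM in all 32 libraries. The cause of the Y-linked differences was not tested. With the mean level of Y-linked genes as a covariate, 3 collagens were called: Col5a3 (1.78, adjusted p = 0.0127), Col14a1 (-1.60, adjusted p = 0.0246) and Col7a1 (2.99, adjusted p = 0.0442). The part of the marker sums in the collagen differences was not tested. With offsets for GC content and length, 10 collagens were called in EOM (1 higher and 9 lower). All 8 groups in 1 fit gave 13 (6 higher and 7 lower), and all 4 albino libraries as labelled gave 0. Shares over all genes for these alternative fits are not given here, so these counts are not results about collagens as a set.

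In TA the direction was nearly uniform. Of 36 collagens tested, 21 were higher and 1 lower in the albino libraries, where 31.7% of all 13295 genes tested were called (15.0% higher and 16.7% lower). The median log2 difference was 0.86 over the collagens and 0.00 over all genes. The 8 collagens not tested for low counts were Col2a1, Col4a6, Col6a4, Col6a5, Col9a3, Col10a1, Col17a1 and Col25a1.

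Of 10 fibrillar chains tested, 7 were higher. Col5a3 again differed most, with 11.1, 11.0, 10.1 and 10.4 CPM in C57BL/6 TA and 43.0 and 38.4 CPM in albino TA, a 3.74-fold difference (log2 1.90 ± 0.09, adjusted p = 9.63e-11). Col3a1 had 102, 129, 74.3 and 78.3 CPM against 274 and 293 CPM (1.54 ± 0.25, adjusted p = 0.0126), and Col5a2 17.1, 18.8, 14.5 and 16.8 CPM against 41.9 and 43.0 CPM (1.31 ± 0.09, adjusted p = 1.63e-08). The genotypes did not overlap for any of these genes. Col1a1 and Col1a2 were higher by 1.44 ± 0.32 (adjusted p = 0.0333) and 1.24 ± 0.25 (adjusted p = 0.0236), Col5a1 by 1.13 ± 0.11 (adjusted p = 1.13e-06) and Col11a2 by 1.35 ± 0.25 (adjusted p = 0.000479), and Col11a1 was not called (0.55 ± 0.33, adjusted p = 0.227).

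In the basement membrane network, 4 of 5 chains tested were higher in albino TA. Col4a1 had 87.6, 104, 67.0 and 86.7 CPM in C57BL/6 TA and 194 and 183 CPM in albino TA (log2 difference 1.10 ± 0.14, adjusted p = 0.00103). Col4a2 had 71.2, 73.9, 58.9 and 65.6 CPM against 125 and 128 CPM (0.88 ± 0.07, adjusted p = 1.14e-07). Col4a5 was low in this muscle but also higher, with 1.40, 1.73, 0.909 and 1.47 CPM against 2.46 and 2.63 CPM (0.85 ± 0.29, adjusted p = 0.0293), as was Col4a4 (0.86 ± 0.28, adjusted p = 0.0230).

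All 4 beaded filament chains tested were higher, by between 1.13 (Col6a3, SE 0.10) and 1.47 (Col6a2, SE 0.19) on the log2 scale, and both multiplexins were: Col15a1 by 1.38 ± 0.21 and Col18a1 by 0.86 ± 0.14. Of 8 fibril-associated collagens, Col12a1 (1.06 ± 0.19), Col14a1 (0.85 ± 0.15) and Col16a1 (0.86 ± 0.21) were higher. Col19a1 was the only collagen called lower, at 1.76, 1.23, 1.52 and 1.72 CPM in C57BL/6 TA and 0.454 and 0.647 CPM in albino TA (-1.53 ± 0.39, adjusted p = 0.00554). Of the short-chain pair tested, Col8a2 was higher (1.32 ± 0.28, adjusted p = 0.00153), and neither transmembrane collagen tested was called.

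The collagen share was 0.0607% ± 0.0102 (SD, n = 4) in C57BL/6 TA and 0.141% ± 0.00232 (SD, n = 2) in albino TA, a ratio of 2.33 with no overlap. The two-sided exact permutation p was 0.0667, the smallest that 2 against 4 allows (adjusted over 8 comparisons 0.202). Marker lists of other cells did not all move the same way. The fibroblast list summed to 2180 and 2680 CPM in albino TA against 901 to 1160 CPM, with 14 of 14 tested genes higher, and the tenocyte list to 392 and 441 CPM against 133 to 184 CPM, with 9 of 10 higher. The macrophage list summed to 159 and 198 CPM against 38.9 to 49.8 CPM, with 12 of 12 higher, and no gene of these 3 lists was at 0 in any of the 6 libraries. The endothelial list summed to 543 and 584 CPM against 430 to 494 CPM (4 of 12 higher, 1 lower). The mural list was lower, at 733 and 735 CPM against 742 to 860 CPM (4 of 10 genes higher, 1 lower). The Schwann list overlapped, at 139 and 141 CPM against 105 to 166 CPM (1 of 10 higher). Uty was at 10.1 and 10.7 CPM in albino TA against 15.5 to 18.5 CPM, which cannot be told apart from genotype. With the Y-linked covariate, 6 collagens were called, all higher: Col5a3 (1.84, adjusted p = 6.73e-05), Col5a2, Col4a2, Col6a1, Col6a3 and Col11a2. The part of the marker sums was not tested. Col1a1 and Col4a5, called but outside the 20 members chosen by adjusted p, were not followed gene by gene with libraries left out. The calls of Col3a1, Col4a4 and Col1a2 were each lost without either albino library: without replicate 3 they were at 1.58, 0.91 and 1.23 (adjusted p = 0.0715, 0.0898 and 0.117), and without replicate 4 at 1.51, 0.83 and 1.25 (adjusted p = 0.0734, 0.122 and 0.108). Col1a2 also lost its call without C57BL/6 TA replicate 1 (1.21, adjusted p = 0.0700) or 4 (1.22, adjusted p = 0.0717), and Col16a1 (0.79, adjusted p = 0.0606) and Col19a1 (-1.30, adjusted p = 0.0696) without albino TA replicate 3. With all 4 albino libraries as labelled, 0 collagens were called. Shares over all genes for that fit and for the fit with the Y-linked covariate are not given here.

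**Figure D4:**
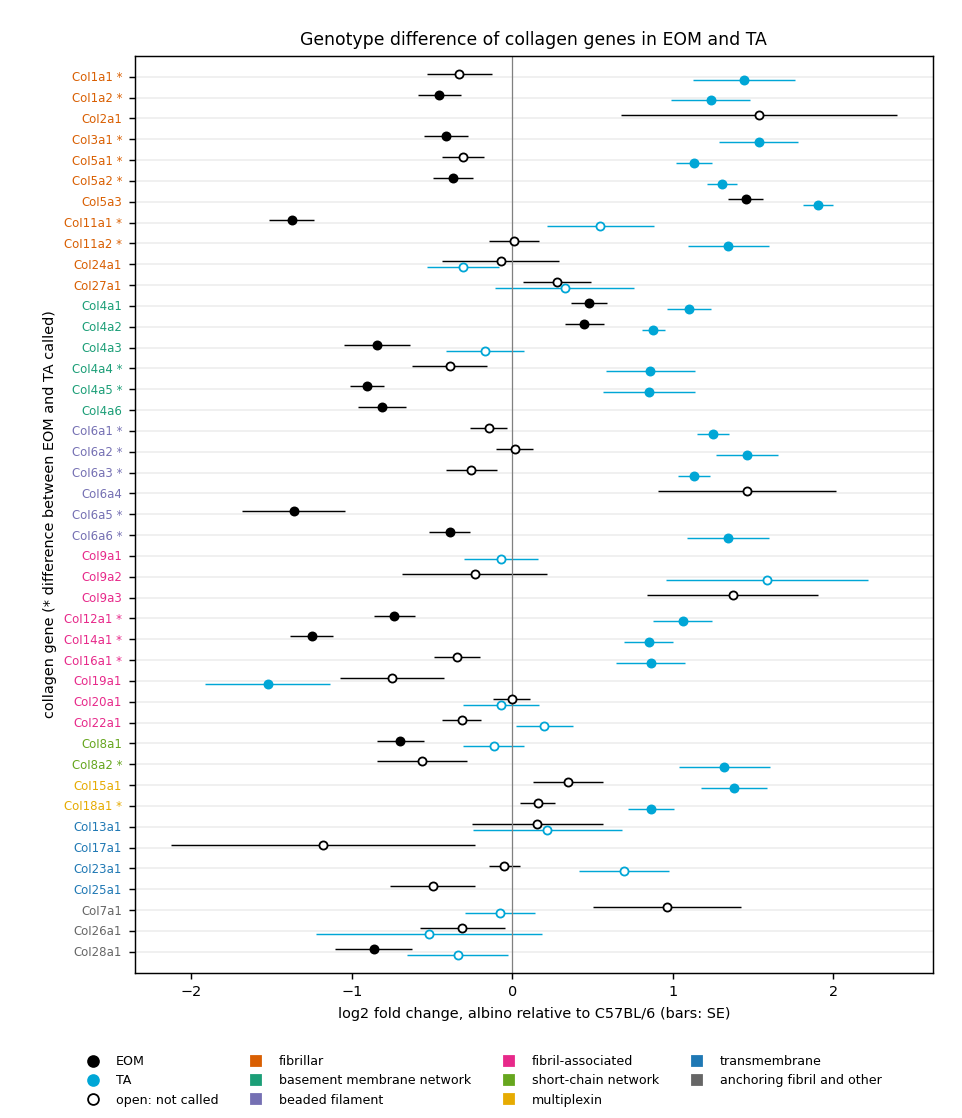
Log2 difference between albino and C57BL/6 for each collagen (rows, by class) in EOM (black) and in TA (blue), with bars of 1 SE; filled points were called at an adjusted p under 0.05 and open points were not, and an asterisk marks the 19 collagens whose differences were called unlike between the muscles. Col5a3, Col4a1 and Col4a2 lie to the right of 0 in both muscles, while most other called EOM points lie to the left and most called TA points to the right.

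The difference between the muscles was tested as an interaction, the albino effect in EOM minus that in TA. Of 43 collagens tested, 19 were called, all lower in EOM relative to TA, where 8.22% of all 15670 genes tested were called (2.41% higher and 5.81% lower). The median was -1.04 over the collagens and -0.03 over all genes. By class these were 7 of the fibrillar chains, 2 of the basement membrane network, 5 of the beaded filaments, 3 fibril-associated collagens, 1 short-chain collagen and 1 multiplexin.

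Col14a1 was the clearest, since its albino libraries were under C57BL/6 in EOM and above C57BL/6 in TA, with an interaction of -2.11 ± 0.19 (adjusted p = 4.56e-06). Col4a5 (-1.76 ± 0.22, adjusted p = 9.40e-05), Col5a2 (-1.68 ± 0.16, adjusted p = 8.21e-06), Col12a1 (-1.80 ± 0.23, adjusted p = 9.95e-05), Col3a1 (-1.95 ± 0.30, adjusted p = 0.00345) and Col1a2 (-1.70 ± 0.30, adjusted p = 0.00760) were likewise called lower in EOM and higher in TA. Col6a6 was also called in both muscles (interaction -1.74 ± 0.29, adjusted p = 0.00106). Col6a1 (-1.41 ± 0.17, adjusted p = 0.000136) and Col5a1 (-1.44 ± 0.19, adjusted p = 0.000266) had a called difference in TA and none in EOM, Col11a1 (-1.93 ± 0.37, adjusted p = 0.00347) the reverse, and Col6a5 (-3.81 ± 0.87, adjusted p = 0.0117) was called in EOM and not tested in TA. The interaction of Col1a2 was not called without albino EOM replicate 3 (-1.58, adjusted p = 0.0605). The 3 collagens called higher in both muscles had no called interaction in the main fit: Col5a3 at -0.45 ± 0.14 (adjusted p = 0.0575), Col4a1 at -0.63 ± 0.20 (adjusted p = 0.0739) and Col4a2 at -0.44 ± 0.16 (adjusted p = 0.102). With the Y-linked covariate in edgeR, the interaction of Col4a2 was called (-0.60, adjusted p = 0.0197). So was that of Col7a1, which was higher in EOM relative to TA (1.85, adjusted p = 0.0059). With all libraries as labelled, 0 interactions were called.

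**Figure D5:**
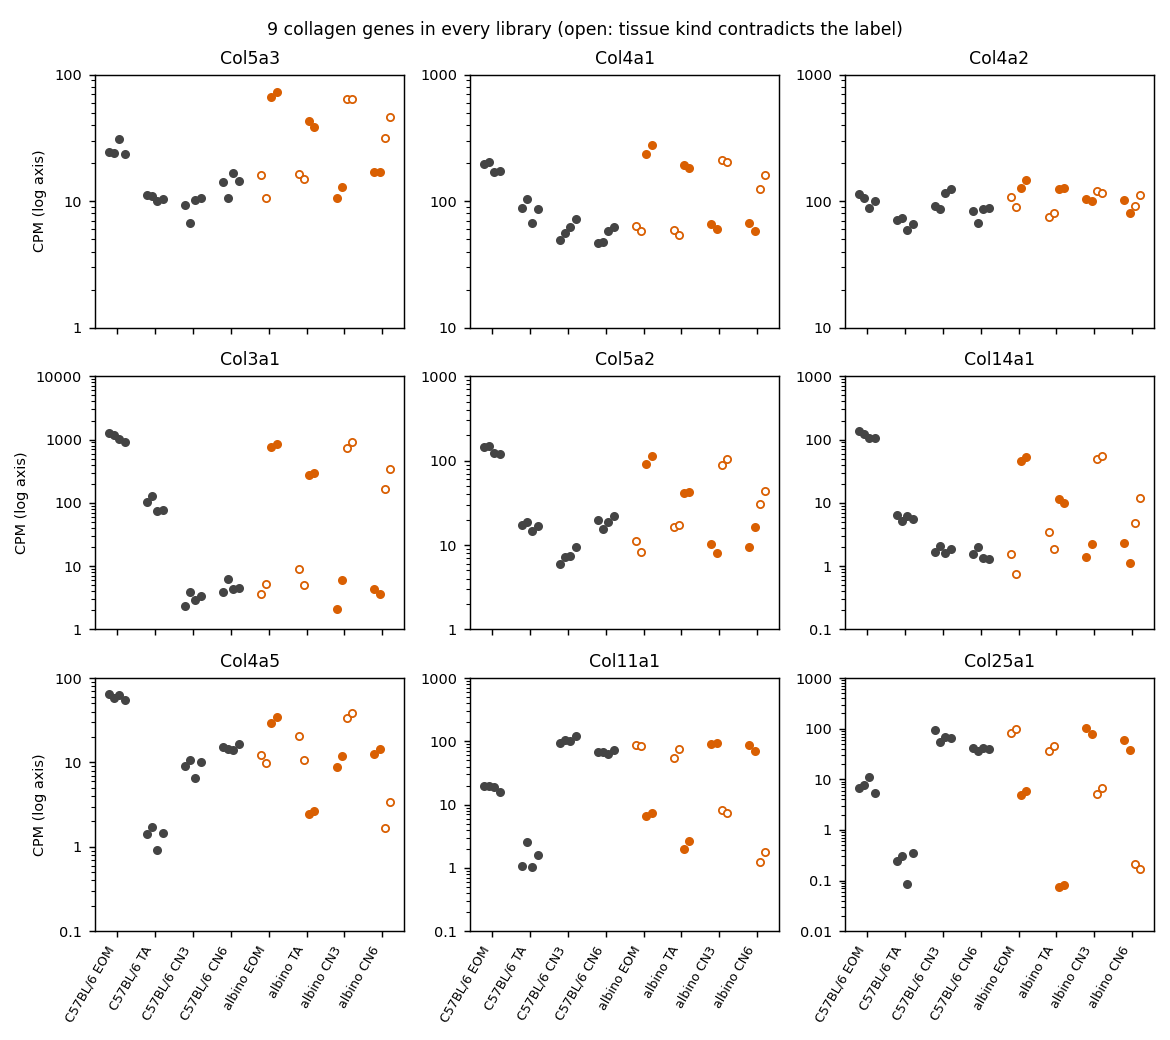
CPM (log axis) of 9 collagens in each library by labelled group, with filled points for libraries whose tissue kind matched the label and open points for the 8 that did not. Col5a3, Col4a1 and Col4a2 are higher in the filled albino points of both muscles, Col14a1 and Col4a5 are lower in albino EOM and higher in albino TA, and among filled points Col11a1 and Col25a1 are highest in CN3 and CN6.

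Within albino mice, EOM (2 libraries) against TA (2 libraries), 27 collagens were higher and 4 lower of 43 tested, where 57.9% of the 14834 genes tested were called (29.9% higher, 28.0% lower). The median over the collagens was 0.82, against 0.07 over all genes. These libraries also enter the genotype comparisons, so the values are not separate evidence. Col14a1 differed by 1.5 ± 0.14 (adjusted p = 0.000154), Col4a5 by 2.96 ± 0.16 (adjusted p = 2.37e-05) and Col3a1 by 0.84 ± 0.09 (adjusted p = 0.000375). Col9a1 was again lower in EOM, at 0.0848 and 0.0963 CPM against 3.52 and 5.70 CPM in TA. Of the other lower calls, Col4a2 (-0.57 ± 0.10), Col6a3 (-0.41 ± 0.14) and Col22a1 (-0.58 ± 0.12) changed direction when scaled by library totals, as did the uncalled Col4a1 and Col7a1.

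In CN3 and CN6 no collagen was called between genotypes by edgeR. In CN3, 0 of 43 collagens tested were called, where 0.0557% of 16171 genes were (0.0433% higher and 0.0124% lower), 5 had an unadjusted p under 0.05, and DESeq2 called 0. The 5 were Col4a3, Col6a5, Col9a2, Col11a2 and Col16a1, the last with 96.9, 84.6, 122 and 134 CPM in C57BL/6 and 87.1 and 60.3 CPM in albino CN3 (-0.56 ± 0.21, adjusted p = 0.581). In CN6, 0 of 43 were called, where 0.0369% of 16268 genes were (0.0184% higher and 0.0184% lower), 8 had an unadjusted p under 0.05, and DESeq2 called 1. The smallest p was that of Col6a1, with 22.4, 23.9, 23.1 and 26.1 CPM in C57BL/6 and 12.9 and 17.8 CPM in albino CN6, which did not overlap (-0.64 ± 0.13, adjusted p = 0.244). The call by DESeq2 was also Col6a1 (-0.64, adjusted p = 0.00328). Shares over all genes for an unadjusted p under 0.05, or for DESeq2 calls, are not given here. Those counts are thus not results about collagens as a set. Without albino CN6 replicate 2, only 1 albino CN6 library remained. The log2 differences in edgeR then included -0.91 for Col6a1, -1.03 for Col5a2, 0.54 for Col25a1 and 1.09 for Col7a1. With all libraries as labelled, edgeR called 0 collagens in CN3 and 0 in CN6.

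Col5a3, called in both muscles, had 9.32, 6.78, 10.3 and 10.5 CPM in C57BL/6 CN3 and 10.5 and 13 CPM in albino CN3 (0.36 ± 0.19, adjusted p = 0.636). In CN6 it had 14.1, 10.5, 16.6 and 14.5 CPM in C57BL/6 and 17.1 CPM in both albino libraries, which did not overlap (0.29 ± 0.16, adjusted p = 0.620). Whether the genotype difference of Col5a3 differs between muscle and brainstem was not tested. The collagen share was 0.0728% ± 0.00575 (SD, n = 2) in albino CN3 against 0.0794% ± 0.0111 (SD, n = 4), and 0.0696% ± 0.00494 (SD, n = 2) in albino CN6 against 0.0693% ± 0.00273 (SD, n = 4), with two-sided exact permutation p-values of 0.533 and 0.800.

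The 8 libraries that went against their label are given one by one. The collagen share was 0.274% and 0.318% in the libraries labelled albino CN3 3 and 4, and 0.0840% and 0.141% in those labelled albino CN6 3 and 4. It was 0.0771% and 0.0697% in the libraries labelled albino EOM 1 and 2, and 0.0815% and 0.0640% in those labelled albino TA 1 and 2. Col5a3 stood at 63.7 and 63.8 CPM in the libraries labelled albino CN3 3 and 4, at 31.3 and 46 CPM in those labelled albino CN6 3 and 4, and between 10.5 and 16.3 CPM in the remaining 4. Col4a5 was at 33.6 and 38.9 CPM in the libraries labelled albino CN3 3 and 4 and at 1.68 and 3.36 CPM in those labelled albino CN6 3 and 4, and Col14a1 at 49.4 and 55.3 CPM and at 4.74 and 11.9 CPM. In the main comparisons these values were not averaged with any group.

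In the library labelled albino TA 1, 6 collagens were above 2 times the highest level of any brain library used. Col9a3 was at 80.0 CPM, Col8a2 at 40.7, Col8a1 at 35.4, Col4a3 at 8.17, Col4a4 at 6.55 and Col17a1 at 1.59 CPM there. Choroid plexus genes, 10 in the list, summed to 8600 CPM in that library and to 51.9 CPM in the library labelled albino TA 2, and their part in these levels was not tested. In the library labelled albino CN3 4, Col17a1 was at 28.4 CPM and the surface epithelium list at 1420 CPM, against 0.693 and 65.6 CPM in the library labelled albino CN3 3.

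Genes that make, cross-link, bind and degrade collagen were counted from 5 lists. In albino EOM, the list for chain modification and folding had 1 higher and 5 lower of 24 tested, that for procollagen processing and cross-linking 0 and 4 of 14, the receptors 0 and 5 of 12, breakdown 4 and 7 of 21, and TGF-beta signalling 0 and 13 of 22, beside 15.0% higher and 17.9% lower over all genes tested. Lox, which cross-links fibrils, was lower by -1.07 ± 0.12 (adjusted p = 0.000213), and Ddr2, a receptor tyrosine kinase for fibrillar collagen, by -0.89 ± 0.09 (adjusted p = 0.000141). Timp3, an inhibitor of metalloproteinases bound to the matrix, was lower by -1.11 ± 0.09 (adjusted p = 5.18e-05), and the TGF-beta receptor Tgfbr1 by -0.99 ± 0.13 (adjusted p = 0.000559). Creb3l1, a transcription factor of procollagen-secreting cells, was the higher member of its list (0.89 ± 0.17, adjusted p = 0.00310).

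In albino TA, chain modification and folding had 6 higher and 3 lower of 23 tested, processing and cross-linking 8 and 0 of 13, breakdown 12 and 1 of 18, receptors 5 and 1 of 11, and TGF-beta signalling 2 and 7 of 20, beside 15.0% higher and 16.7% lower over all genes tested. The cross-linking enzymes Loxl1 (1.19 ± 0.13, adjusted p = 2.50e-06) and Loxl2 (1.17 ± 0.14, adjusted p = 7.35e-06) and the procollagen proteinase enhancer Pcolce (1.29 ± 0.14, adjusted p = 0.000115) were higher. So were the membrane-bound collagenase Mmp14 (1.66 ± 0.14, adjusted p = 1.58e-07), the protease Ctsk (1.53 ± 0.17, adjusted p = 1.87e-06) and Ddr2 (0.87 ± 0.10, adjusted p = 4.07e-06). Timp3 (-0.77 ± 0.08, adjusted p = 1.03e-06) and Tgfbr1 (-0.60 ± 0.11, adjusted p = 0.000924) were lower, as they were in EOM. No gene of the 5 lists was called between genotypes in CN3 or CN6.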

How the data were processed

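RNA was measured in 32 libraries, 4 per group. The deposited table holds whole-number read counts per gene symbol, raw by its values; per the submitters' processing notes, the tools were HISAT2 2.1.0, Trimmomatic 0.33, featureCounts, FastQC and edgeR, with mm10 as the build. The strand setting is not given in the sources used here.

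From these counts, each fit used edgeR 4.0.16 in R 4.3.3 (filterByExpr, TMM factors, robust quasi-likelihood F test), with p-values adjusted over all genes tested and called under 0.05; DESeq2 1.42.0 was an alternative. Genotype fits held the 24 libraries whose tissue kind matched the label (4 C57BL/6 and 2 albino per tissue), a choice made from muscle and neuron genes and not from collagens. CPM values are counts divided by the library total and scaled to 1000000. Exon lengths came from GENCODE M21, which holds 95.6% of the table's symbols, with the exons of all transcripts of a gene merged. The collagen share was compared by two-sided exact permutation tests. Scripts were tested on simulated data. Alternatives changed the scaling, the filter, the tool, the libraries, the replicate block, GC and length offsets and a Y-linked covariate; scaling by library totals was added after seeing the data.

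The members, classes and gene lists were chosen with earlier results of these data known. Values are given for called collagens with a mean of at least 1 CPM in 1 of the groups, at most 20 per comparison by adjusted p, and for at most 4 genes of a pathway list. Further collagens, named to complete a chain family or a list of calls, were chosen after their values were seen. The 8 libraries against their label were left out of the main fits. The labels do not say whether equal replicate numbers share an animal, and the main fits did not pair libraries by them.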

Additional observations from a re-analysis of the deposited data

Results flagged for a closer look

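Of 148 sets of 4 C57BL/6 libraries checked for a collagen, 7 had a single library far from the other 3, where chance gives about 1 in 20. In EOM, replicate 3 was high in Col5a3 at 30.7 CPM and in Col9a2 at 1.61 CPM. In TA, replicate 2 was high in Col6a6 at 2.72 CPM and replicate 3 in Col24a1 at 5.63 CPM. In brainstem, CN3 replicate 2 was low in Col22a1 at 1.88 CPM, CN6 replicate 2 was high in Col4a6 at 3.34 CPM and CN6 replicate 1 was high in Col15a1 at 15.5 CPM.

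The albino effect differed between EOM and TA for 19 collagens by the interaction test in edgeR, all with a lower value in EOM. The log2 differences were -1.78 for Col1a1, -1.70 for Col1a2, -1.95 for Col3a1, -1.44 for Col5a1, -1.68 for Col5a2, -1.93 for Col11a1 and -1.34 for Col11a2 among the fibrillar chains, and -1.26 for Col4a4 and -1.75 for Col4a5 in the basement membrane network. Among the beaded filament chains they were -1.41 for Col6a1, -1.46 for Col6a2, -1.40 for Col6a3, -3.81 for Col6a5 and -1.74 for Col6a6. The others were -1.89 for Col8a2, -1.80 for Col12a1, -2.11 for Col14a1, -1.21 for Col16a1 and -0.70 for Col18a1. Leaving out 1 library ended the call of Col1a1 for 8 of 12 libraries, with the largest adjusted p of 0.152 without albino EOM replicate 3, where the value was -1.60. Without that same library the calls of Col4a4 (-0.91, adjusted p = 0.150), Col18a1 (-0.61, adjusted p = 0.105) and Col1a2 (-1.58, adjusted p = 0.0605) were also lost. Without albino TA replicate 4, those of Col11a2 (-1.02, adjusted p = 0.0926), Col18a1 (-0.59, adjusted p = 0.114), Col4a4 (-1.22, adjusted p = 0.0954) and Col6a5 (-3.79, adjusted p = 0.0557) were lost, and without albino TA replicate 3 those of Col4a4 (-1.30, adjusted p = 0.0700) and Col6a5 (-3.84, adjusted p = 0.0501).

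Outside the main fits, a collagen was flagged at 10 or more counts and more than 2 times the highest library used of that tissue kind. In the library labelled albino TA 1 this held for 6 collagens. They were Col4a3 at 8.17 CPM, Col4a4 at 6.55 CPM, Col8a1 at 35.4 CPM, Col8a2 at 40.7 CPM, Col9a3 at 80.0 CPM and Col17a1 at 1.59 CPM. The library labelled albino CN3 3 held Col6a4 at 6.70 CPM, where the highest muscle library used had 2.76 CPM.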

How the results depend on the processing

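Collagens called in EOM between genotypes numbered 16, and 9 with the replicate block (3 higher, 6 lower), 10 with GC and length offsets (1 higher, 9 lower), 3 with a Y-linked level as a covariate (2 higher, 1 lower) and 0 with all libraries as labelled. All 8 groups in 1 fit gave 13 in EOM (6 higher, 7 lower), where 7 of the 16 calls were lost. In TA the 22 calls became 6 with the Y-linked covariate (all higher) and 0 as labelled. The 19 interaction calls became 0 as labelled. As labelled, each albino group mixes muscle and brain libraries, so the loss of calls there says nothing about the genotype difference. Uty did not overlap between genotypes in either muscle, so the Y-linked fit cannot fully separate that level from genotype. In CN6 the count of 0 became 1 with DESeq2. Shares over all genes under the alternative settings are not given here. The counts of calls in this section are thus not results about collagens as a set. Where an albino library is left out, only 1 albino library remains in its group. Leaving out 1 library gave 11 to 18 calls in EOM, 16 to 22 in TA, 0 in CN3, 0 to 4 in CN6, 14 to 22 for the interaction, 37 to 38 for C57BL/6 EOM against TA, 17 to 24 for CN3 against CN6, 38 to 40 for muscle against brainstem and 24 to 31 for albino EOM against TA. With the albino libraries grouped by tissue markers, the counts were 21 in EOM (4 higher, 17 lower), 22 in TA and 19 for the interaction, and 0 in CN3 and CN6; those groups came from the values, not from the labels.

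For the collagen share, the difference in percentage points was 0.0661 in TA (exact p = 0.0286) and 0.175 between albino EOM and TA (exact p = 0.0286) with marker groups, and 0.105 in CN3 as labelled, a reversed sign. In CN6 it was -0.000214 per kb of exon and lay between -0.00315 and 0.00384 with 1 library left out. It lay between 0.0057 and 0.0144 for CN3 against CN6, where leaving out CN3 replicate 2 gave an exact p of 0.0286, and between 0.113 and 0.166 for muscle against brainstem. Among called members with the values chosen for naming (at most 20 per comparison), the sign reversed in 5 cases, of which 3 were with libraries as labelled (Col11a1 in EOM at 1.09, Col4a1 in EOM at -0.24, Col19a1 in TA at 1.77) and the others with library totals in albino EOM against TA (Col4a2 at 0.12, Col22a1 at 0.11). With library totals, called collagens outside that choice also changed sign, namely Col6a3 in albino EOM against TA and Col4a2 and Col4a5 in muscle against brainstem. Of the remaining checks of named members, 2278 kept direction and call and 181 lost the call. The cause of these shifts was not tested.

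Same-numbered libraries did not deviate together in most pairs of groups, so the replicate block is given for completeness: it left 21 calls in TA, 23 for the interaction, 38 for EOM against TA, 24 for CN3 against CN6, 39 for muscle against brainstem, 35 for albino EOM against TA and 0 in CN3 and CN6. Each albino group held 2 libraries, and Col10a1 was not tested in any comparison for low counts.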
